A study of Neurospora crassa with 24 samples.

Results

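The transcription factors that set the use of plant polysaccharides in *Neurospora crassa* are followed here by their transcript levels, as 7 of the 9730 loci in the deposited RNA-Seq tables. They were chosen by locus, with earlier results of these data known. The 7 are *clr-1* (NCU07705), *clr-2* (NCU08042), *xlr-1* (NCU06971), *pdr-1* (NCU09033), *ara-1* (NCU05414), *cre-1* (NCU08807) and *vib-1* (NCU03725). Levels were measured in 3 strains, the WT and the deletion mutants Δ*rco-3* and Δ*col-26*, each kept for 1 h in Vogel's medium that held 0.05, 0.5 or 2% glucose or no carbon source. All cultures had first grown for 16 h at 28 °C on 2% sucrose. This makes 12 groups, sampled as duplicate cultures with 1 library each, 24 libraries in all. RCO-3 is a membrane protein that senses glucose without transporting it, and COL-26 is a transcriptional activator whose deletion impairs growth on starch. Each deletion is represented by 1 stock strain, with no complemented strain among the libraries. Both mutant stocks are listed as *mat a*.

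Filamentous fungi such as *N. crassa* secrete enzymes that take apart cellulose, hemicellulose and pectin, and they hold these genes back while glucose is at hand. CLR-1 and CLR-2 are zinc binuclear cluster activators of the cellulase genes, with CLR-1 acting upstream of CLR-2. XLR-1 activates genes for xylan and xylose use, PDR-1 genes for pectin use, and ARA-1 genes for arabinose and galactose use. CRE-1 is the zinc finger repressor of carbon catabolite repression, and VIB-1 is a p53-like factor that works upstream of *clr-2* in cellulase induction and is also known for heterokaryon incompatibility. The transcript level of a factor is one layer only, since several of these proteins are also controlled after translation.

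The values are FPKM, fragment numbers divided by transcript length and library size, and so compare per unit length between genes. The FPKM of a library summed to between 565181 and 616209, replicate libraries correlated at r = 0.99831 to 0.99883 across genes, and the steps of low values put the depth near 11800000 fragments per library. No Δ*rco-3* library held a value above 0 for *rco-3* itself. Those of *col-26* were not absent from Δ*col-26*, at 10.5 ± 0.205 FPKM (SD, n = 2) without carbon source and 8.21 ± 0.00707 at 2% glucose, against 21.1 ± 0.354 and 17.4 ± 0.940 in the WT. At 0.05 and 0.5% glucose they were 5.015 ± 0.148 and 5.735 ± 0.955, against 39.37 ± 0.283 and 17.34 ± 0.912 in the WT. The mating type gene *matA-1* was listed at 0 in every mutant library and lay between 1.82 and 11.95 FPKM in the WT, so mating type and deletion cannot be told apart. The summed level of 5 conidial markers, the other cell type that a mycelial culture can hold, ranged from 9.31 to 365.42 FPKM in the WT libraries and from 370.27 to 5052.51 in the mutant libraries, and none of the 5 was at 0 in any group. Their part in the strain comparisons was not tested.

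A change "passed" here when limma's moderated test on log2(FPKM + 1) gave an adjusted p below 0.001, and it counted as a DEG when the absolute log2 fold change also reached 1 and the mean exceeded 20 FPKM in either group. The median log2 fold change over all 7981 genes tested was not 0 in many comparisons, with 0.307 for the WT without carbon source *vs.* 2% glucose and 0.497 for Δ*rco-3* *vs.* WT at 0.05% glucose. Dividing each library by its median ratio to all libraries brought these medians to 0.024 and -0.00377. Values after that scaling are given below as scaled.

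In the WT, removal of glucose raised the transcripts of the 5 activators and lowered those of *cre-1* and *vib-1*. All 7 factors passed in the comparison of no carbon source *vs.* 2% glucose, 5 upwards and 2 downwards, where 80.9% of all genes tested passed (49.9% upwards and 31% downwards), and 6 of the 7 were DEGs, where 29.3% of all genes were. The median over the 7 was a log2 fold change of 2.16, and that over all genes 0.307. The direction of each of the 7 was the same after scaling. In bulk RNA, fewer cells of a type and less RNA per cell cannot be told apart.

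The pentose regulator *ara-1* (chromosome II, 1559014 to 1561693, NC12 assembly) spanned the widest range. Its WT libraries held 84.22 and 83.9 FPKM without carbon source, 2.89 and 2.36 at 0.05% glucose, 1.04 and 0.82 at 0.5%, and 0.6 and 0.76 at 2%. The starved libraries stood far above all others, at 124-fold the mean at 2% glucose and a log2 fold change of 5.66 ± 0.07 (SE, adjusted p = 2.3e-23, scaled 5.41). Between 0.05 and 0.5% glucose it fell again, 2.82-fold, and its libraries at 0.5 and 2% did not overlap, but the difference did not pass (log2 fold change 0.20, adjusted p = 0.03). The lowest *ara-1* values rest on about 19 fragments.

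The xylan regulator *xlr-1* (chromosome IV, 4706112 to 4709560) followed the same course at lower levels. The WT libraries read 26.88 and 27.19 FPKM without carbon source, 3.18 and 4.13 at 0.05% glucose, 1.11 and 0.91 at 0.5%, and 1.05 and 0.79 at 2%. Starved libraries were 29.4-fold above those at 2% (log2 fold change 3.87 ± 0.09, scaled 3.61), the step from 0.05 to 0.5% glucose was 3.62-fold, and the libraries at 0.5 and 2% overlapped.

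The cellulase regulators *clr-1* (chromosome IV, 2149157 to 2154036) and *clr-2* (chromosome IV, 4001190 to 4004643) differed in how they descended. For *clr-1* the WT libraries held 38.71 and 40.14 FPKM without carbon source, 16.78 and 17.35 at 0.05% glucose, 7.0 and 7.13 at 0.5%, and 6.01 and 5.93 at 2%. It fell 2.31-fold from no carbon source to 0.05% glucose and 2.42-fold from 0.05 to 0.5%, log2 fold changes of 1.16 for both steps, which were 0.59 and 1.40 after scaling. For *clr-2* they held 4.48 and 4.81 FPKM without carbon source and only 0.18 and 0.24, 0.16 and 0.16, and 0.24 and 0.29 in the 3 glucose media. This gene dropped 22.1-fold at the first step (log2 fold change 2.22, adjusted p = 5.9e-15) and no further step passed. It never reached 20 FPKM, so it could not be a DEG by the threshold used, and its values on glucose rest on as few as about 4 fragments per library. Fold changes of such low values are damped by the added 1 FPKM.

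The pectin regulator *pdr-1* (chromosome VII, 400424 to 404459) shared this drop at the first step. Its WT libraries held 34.33 and 34.87 FPKM without carbon source, 6.25 and 6.21 at 0.05% glucose, 7.31 and 7.6 at 0.5%, and 7.42 and 6.85 at 2%. Starved libraries were 5.55-fold above those at 0.05% glucose (log2 fold change 2.30 ± 0.05, scaled 1.76). A small rise from 0.05 to 0.5% glucose passed (1.2-fold, adjusted p = 0.00032), but not with any of the 4 libraries left out (adjusted p = 0.00109 to 0.00598) and not after scaling (adjusted p = 0.789).

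The repressor gene *cre-1* (chromosome IV, 5176440 to 5178927) peaked at scarce glucose. The WT libraries held 13.54 and 14.64 FPKM without carbon source, 105.21 and 105.67 at 0.05% glucose, 56.74 and 56.41 at 0.5%, and 51.98 and 50.94 at 2%. No libraries of different media overlapped. It rose 7.48-fold from no carbon source to 0.05% glucose (log2 fold change -2.82 ± 0.04 for no carbon source *vs.* 0.05%, scaled -3.39), and at 0.5% it was 1.86-fold lower than at 0.05% (adjusted p = 5.3e-14).

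The gene *vib-1* (chromosome V, 2215819 to 2219221) was also low in starved mycelia. Its WT libraries held 4.86 and 4.67 FPKM without carbon source, 53.88 and 53.95 at 0.05% glucose, 61.27 and 58.56 at 0.5%, and 43.92 and 44.88 at 2%. Starved libraries were 9.32-fold below those at 2% glucose (log2 fold change -2.98 ± 0.05, scaled -3.28). The decline from 0.5 to 2% passed as well (1.35-fold, adjusted p = 6.7e-07). No member overlaps another annotated gene on either strand.

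**Figure D1:**
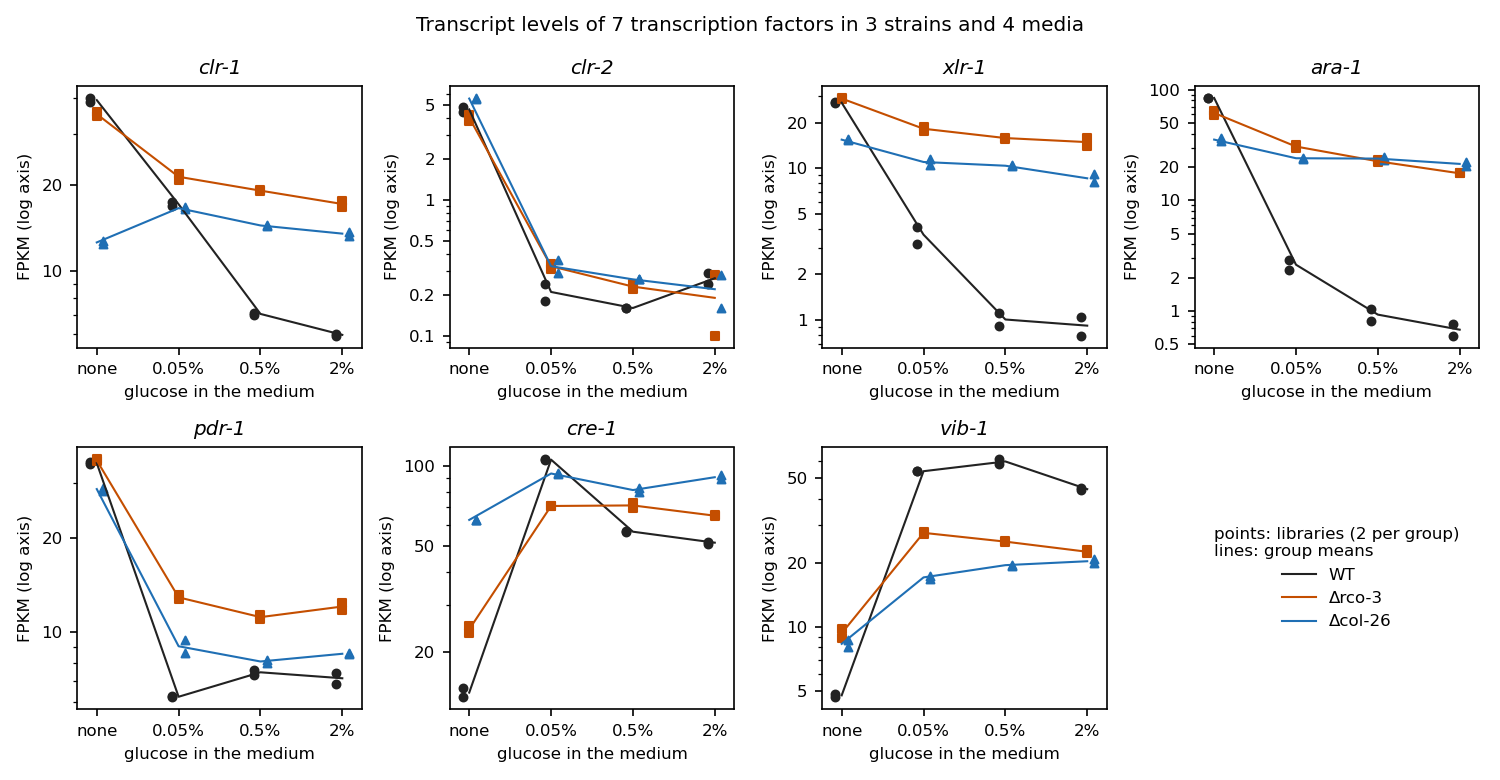
Transcript levels (FPKM, log axis) of the 7 transcription factors against glucose in the medium, with a point per library, 2 per group, and lines through the group means of each strain. In the WT *ara-1* runs from 84.22 FPKM without carbon source to 0.6 at 2% glucose, while the mutant lines of *ara-1* and *xlr-1* stay high on glucose.

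By step of the glucose series, the first one, from no carbon source to 0.05% glucose, moved all 7 factors in the WT, with 6 DEGs (26.8% of all genes tested were DEGs and 82.3% passed). From 0.05 to 0.5% glucose 5 of 7 passed, against 62.2% of all genes, and none was a DEG, against 7.47%. In that step *clr-1* and *xlr-1* were past the fold change (1.16 and 1.21 on the log2 scale) but under 20 FPKM. From 0.5 to 2% glucose 2 of 7 passed, *clr-1* and *vib-1*, against 15.5% of all genes. The first of these, with a log2 fold change of 0.21, did not pass with any of the 4 libraries left out (adjusted p = 0.00362 to 0.00771).

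In both mutants the activators *ara-1* and *xlr-1* stayed high on glucose. For *ara-1* the Δ*rco-3* libraries held 29.75 and 31.52 FPKM at 0.05% glucose, 22.1 and 22.97 at 0.5%, and 17.53 and 17.58 at 2%. The Δ*col-26* libraries held 24.2 and 23.83, 23.23 and 24.45, and 20.65 and 22.05 FPKM in the same media. All 12 values lay above every WT library on glucose. At 2% glucose Δ*rco-3* was 25.8-fold above the WT (log2 fold change 3.47 ± 0.07, adjusted p = 2.8e-19, scaled 3.26) and Δ*col-26* 31.4-fold (3.73 ± 0.07, adjusted p = 7.5e-20, scaled 3.71). At 0.05% glucose, where the WT held 2.36 and 2.89 FPKM, the ratios were 11.7 and 9.15.

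The *xlr-1* transcript of Δ*rco-3* was at 17.64 and 18.8 FPKM at 0.05% glucose, 15.71 and 15.93 at 0.5%, and 15.77 and 13.98 at 2%. Δ*col-26* held 11.47 and 10.54, 10.46 and 10.34, and 8.08 and 9.11 FPKM. These values were again above all WT libraries on glucose, with no overlap. At 2% glucose the ratio to WT was 16.2 in Δ*rco-3* (log2 fold change 3.05 ± 0.09, scaled 2.83) and 9.34 in Δ*col-26* (2.32 ± 0.09, scaled 2.28).

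The *clr-1* transcript was raised in both mutants at the upper glucose levels. It held 18.91 and 19.17 FPKM at 0.5% glucose and 17.55 and 16.65 at 2% in Δ*rco-3*, and 14.37 and 14.41, and 13.26 and 13.69 FPKM, in Δ*col-26*. At 2% glucose this was 2.86-fold (log2 fold change 1.38 ± 0.04) and 2.26-fold (1.05 ± 0.04) the WT level, with scaled values of 1.10 and 0.96. At 0.05% glucose the mutant libraries, with 16.63 and 16.45 FPKM for Δ*col-26* and 20.76 and 21.81 FPKM for Δ*rco-3*, were close to the WT. There the log2 fold change of Δ*rco-3* was 0.30, which turned to -0.28 after scaling, and that of Δ*col-26* was -0.04 (adjusted p = 0.35), or -0.35 scaled (adjusted p = 3.14e-07).

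The *clr-2* transcript did not share this. On glucose the Δ*rco-3* libraries held 0.34 and 0.31, 0.24 and 0.22, and 0.1 and 0.28 FPKM from 0.05 to 2%, and those of Δ*col-26* 0.36 and 0.29, 0.26 and 0.26, and 0.28 and 0.16. In no medium did *clr-2* pass in either mutant *vs.* WT. At 2% glucose the 95% confidence interval of the log2 fold change ran from -0.24 to 0.13 for Δ*col-26* and from -0.28 to 0.10 for Δ*rco-3*, on a scale where the added 1 FPKM exceeds the level itself.

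The *pdr-1* transcript was moderately higher in Δ*rco-3* on glucose, with 13.12 and 12.72 FPKM at 0.05%, 11.34 and 11.01 at 0.5%, and 11.8 and 12.36 at 2%. The ratios to WT were 2.07, 1.5 and 1.69, log2 fold changes of 0.94, 0.53 and 0.69. After scaling these were smaller, at 0.40, 0.26 and 0.41, and each still passed. In Δ*col-26* it held 8.62 and 9.43, 8.15 and 7.99, and 8.56 and 8.52 FPKM. Its increase there passed at 0.05% (1.45-fold) and 2% glucose (1.2-fold), but after scaling neither did (adjusted p = 0.00142 and 0.0162), and at 2% the call was also lost with 3 of 4 libraries left out in turn, WT replicate 2 and either Δ*col-26* library (adjusted p up to 0.00904).

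Of the 2 factors that fall on starvation, *vib-1* was lower in both mutants on glucose. Δ*rco-3* held 27.89 and 27.44 FPKM at 0.05% glucose, 25.35 and 24.96 at 0.5%, and 22.87 and 22.21 at 2%, and Δ*col-26* held 17.41 and 16.75, 19.63 and 19.37, and 20.74 and 19.95. No mutant library reached the lowest WT library on glucose, at 43.92 FPKM. At 0.05% glucose it was 1.95-fold lower in Δ*rco-3* (log2 fold change -0.94 ± 0.05, scaled -1.53) and 3.16-fold lower in Δ*col-26* (-1.60 ± 0.05, scaled -1.92).

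The peak of *cre-1* at 0.05% glucose was flattened in Δ*col-26* and was not seen in Δ*rco-3*. At 0.05% glucose Δ*rco-3* held 70.44 and 70.86 FPKM, next to 69.43 and 72.56 at 0.5% and 65.11 and 64.82 at 2%. In Δ*col-26* the libraries held 94.27 and 92.81, 82.64 and 79.52, and 92.29 and 88.89 FPKM. Relative to WT, *cre-1* was lower at 0.05% glucose in Δ*rco-3* (1.49-fold, adjusted p = 2.8e-11, scaled -1.17 on the log2 scale) and was 1.76-fold higher at 2% glucose in Δ*col-26* (adjusted p = 2.1e-13, scaled 0.70). The increases of Δ*rco-3* at 0.5 and 2% glucose, 1.25-fold and 1.26-fold, did not pass after scaling (adjusted p = 0.415 and 0.388). The small decrease of Δ*col-26* at 0.05% glucose, 1.13-fold, did not pass with any of the 4 libraries left out (adjusted p = 0.00212 to 0.00549), but was larger after scaling (-0.49 on the log2 scale, adjusted p = 2.93e-10).

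Counted by medium, 6 of the 7 factors passed for Δ*rco-3* *vs.* WT with 0.05% glucose (74.9% of all genes tested), 6 with 0.5% (61.1%) and 6 with 2% (60.5%). For Δ*col-26* *vs.* WT the counts were 5 at 0.05% (65.9%), 5 at 0.5% (53.5%) and 6 at 2% (60%). Both sets of comparisons share the WT libraries. The medians over the 7 at 2% glucose were 0.804 for Δ*col-26* (0.0467 over all genes) and 0.686 for Δ*rco-3* (0.209 over all genes). DEGs among the 7 at 2% glucose numbered 0 in Δ*rco-3*, where 8.01% of all genes were DEGs, with *ara-1*, *xlr-1* and *clr-1* past the fold change but under 20 FPKM, and 2 in Δ*col-26* (8.91%), *ara-1* and *vib-1*. At 2% glucose 4 of the 5 conidial markers passed as higher in each mutant, where 33.5% of all genes tested were higher for Δ*col-26* and 43.2% for Δ*rco-3*. The other marker, the conidiation regulator gene *fl*, named after its values were seen, passed as lower in Δ*col-26*, at 2.08 FPKM against 4.915 in the WT. Markers had summed levels of 729.14 to 744.94 FPKM for Δ*col-26* and 794.64 to 861.35 FPKM for Δ*rco-3*, against 12.5 to 12.8 in the WT.

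**Figure D2:**
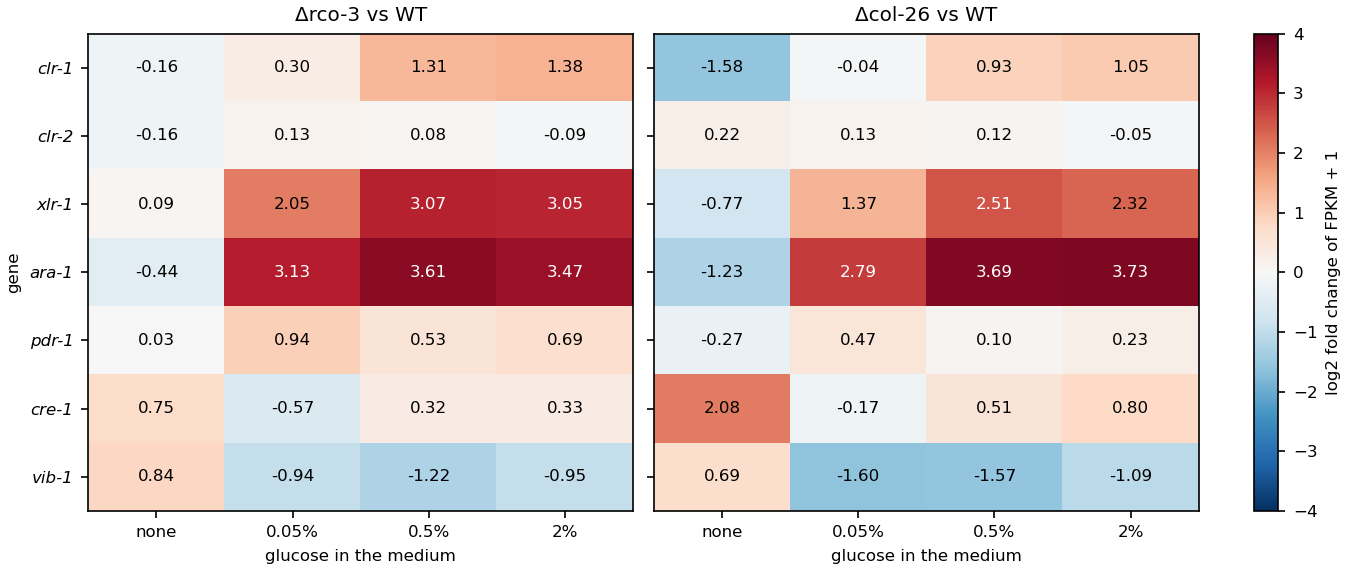
Log2 fold change of FPKM + 1 for Δ*rco-3* *vs.* WT (left) and Δ*col-26* *vs.* WT (right), with genes in rows and glucose in the medium in columns, as group means of 2 libraries each, without further scaling. On glucose *ara-1* and *xlr-1* are higher in both mutants, by 1.37 to 3.73, and *vib-1* lower, by -0.94 to -1.60, whereas without carbon source *cre-1* stands out in Δ*col-26* at 2.08.

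Without carbon source the mutants parted. In Δ*rco-3* 3 of 7 factors passed (57% of all genes tested) and none was a DEG (4.07%), while in Δ*col-26* 6 passed (61.6%) and 3 were DEGs (9.64%). The Δ*col-26* DEGs were *clr-1*, *cre-1* and *ara-1*. Conidial markers summed to 4831.43 to 5052.51 FPKM in starved Δ*col-26* and to 4631.78 to 4807.35 FPKM in starved Δ*rco-3*, against 356.41 to 365.42 in the starved WT.

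For *clr-1* the starved Δ*col-26* libraries held 12.72 and 12.39 FPKM, those of Δ*rco-3* 35.74 and 34.72, and those of the WT 38.71 and 40.14. Δ*col-26* was 3.14-fold below the WT (log2 fold change -1.58 ± 0.04, adjusted p = 2.7e-17, scaled -1.43). The Δ*rco-3* difference of -0.16 had an adjusted p of 0.0021, and passed after scaling at -0.39 (adjusted p = 1.26e-07).

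For *cre-1* the order was turned over. Starved Δ*col-26* held 62.83 and 62.45 FPKM, starved Δ*rco-3* 25.11 and 23.57, and the starved WT 13.54 and 14.64, with no overlap. This was 4.45-fold the WT level in Δ*col-26* (log2 fold change 2.08 ± 0.04, adjusted p = 8.3e-20, scaled 2.21) and 1.73-fold in Δ*rco-3* (0.75 ± 0.04, scaled 0.52).

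For *ara-1* starved Δ*rco-3* held 59.45 and 63.65 FPKM and starved Δ*col-26* 36.58 and 34.19, against 84.22 and 83.9 in the WT. Both were lower, 1.37-fold and 2.38-fold (log2 fold changes -0.44 and -1.23, scaled -0.67 and -1.08). Both mutants thus held more *ara-1* transcript than the WT on glucose and less without carbon source.

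For *xlr-1* starved Δ*col-26* held 15.52 and 15.36 FPKM, 1.75-fold below the WT (adjusted p = 1.5e-07), while Δ*rco-3*, at 28.52 and 29.09 FPKM, did not pass (log2 fold change 0.09, 95% confidence interval -0.09 to 0.27). For *vib-1* starved Δ*rco-3* held 8.89 and 9.77 FPKM and starved Δ*col-26* 8.0 and 8.64, against 4.86 and 4.67 in the WT. Both were higher, 1.96-fold and 1.75-fold (scaled 0.62 and 0.81), the opposite sign to that on glucose.

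The remaining activators moved little without carbon source. The *pdr-1* transcript held 35.04 and 35.56 FPKM in starved Δ*rco-3* (log2 fold change 0.03, adjusted p = 0.61) and 28.93 and 28.27 in starved Δ*col-26*, where a 1.21-fold decrease passed but did not after scaling (adjusted p = 0.0245) or without WT replicate 2 or Δ*col-26* replicate 2 (adjusted p up to 0.00131). The *clr-2* transcript held 5.65 and 5.52 FPKM in starved Δ*col-26* and 4.26 and 3.82 FPKM in starved Δ*rco-3*, and passed in neither (adjusted p = 0.03 and 0.10).

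The response to starvation itself was therefore smaller in the mutants for 6 of the 7 factors. Within Δ*rco-3* all 7 passed for no carbon source *vs.* 2% glucose (76.9% of all genes tested) with 5 DEGs (19.9%). Within Δ*col-26* 6 passed (76.7%) with 2 DEGs (20.8%), *pdr-1* and *vib-1*. The median over the 7 was 2.16 for the WT, 0.703 for Δ*col-26* and 1.00 for Δ*rco-3*, against 0.307, 0.133 and 0.297 over all genes.

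The log2 fold change of *ara-1* was 5.66 for the WT, against 1.75 in the Δ*rco-3* strain and then 0.70 in Δ*col-26*, and in the same order that of *xlr-1* was 3.87, 0.91 and 0.78. For *clr-1* it went from 2.54 to 1.00 and -0.09, the last with an adjusted p of 0.04 that passed as a fall after scaling (-0.18, adjusted p = 0.000593), and for *vib-1* from -2.98 to -1.19 and -1.20. The *cre-1* response was -1.80, -1.38 and -0.53, and that of *pdr-1* 2.13, 1.47 and 1.63. These 6 genes passed the test of the difference in response from the WT in both mutants (55.2% of all genes tested passed for Δ*col-26*, 51.5% for Δ*rco-3*), with the exception that *pdr-1* in Δ*col-26* did not after scaling (adjusted p = 0.00215). The response of *clr-2*, at 2.16, 2.08 and 2.43, did not differ by that test (95% confidence intervals of the difference -0.34 to 0.19 and 0.01 to 0.54).

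**Figure D3:**
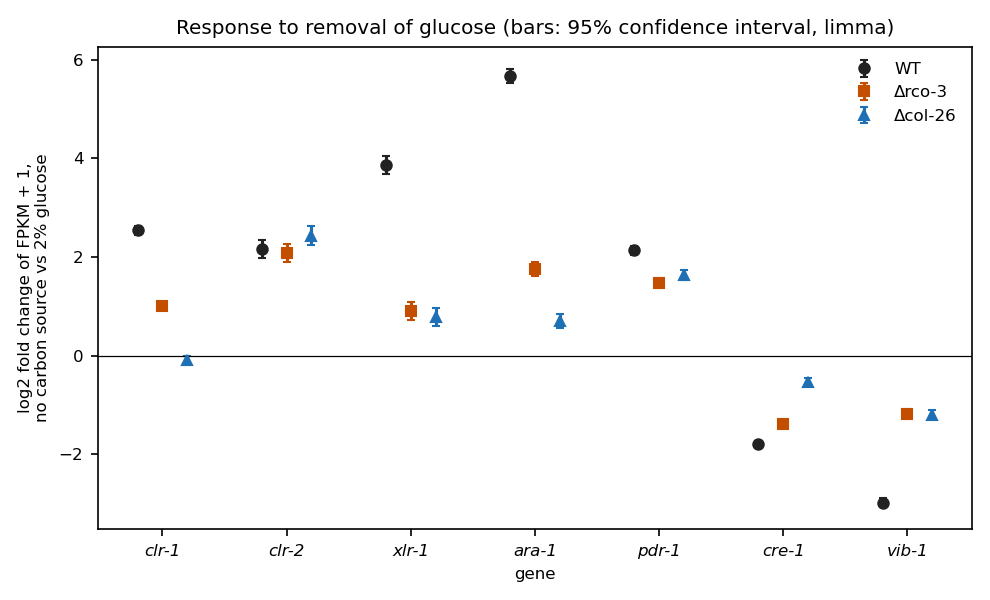
Log2 fold change of FPKM + 1, no carbon source *vs.* 2% glucose, for each factor (x axis) in the 3 strains, with bars for the limma 95% confidence interval over 2 libraries per group. The *clr-2* points lie together at 2.08 to 2.43, whereas those of *ara-1* spread from 5.66 in the WT to 0.70 in Δ*col-26*.

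Over the 4 media the highest group mean of *ara-1* was 124-fold the lowest for the WT, 1.66-fold for Δ*col-26* and 3.51-fold for Δ*rco-3*. For *xlr-1* these ranges were in the same order 29.4-fold, 1.80-fold and 1.94-fold, and for *clr-1* 6.6-fold, 1.32-fold and 2.06-fold. The *clr-2* range was 29-fold, 25.4-fold and 21.3-fold. Every factor still responded to the medium in every strain by the F test over the 4 media, which 92.7% of all genes passed for the WT, 82.8% for Δ*col-26* and 81.6% for Δ*rco-3*.

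Among the 3 glucose levels the mutants varied little. From 0.05 to 0.5% glucose 1 of 7 factors passed in Δ*rco-3* (13.9% of all genes tested), *ara-1* at 1.36-fold higher in 0.05%, and 1 in Δ*col-26* (9.02%), *cre-1* at 1.15-fold higher in 0.05%. From 0.5 to 2% glucose 1 passed in Δ*rco-3* (18.9%), again *ara-1*, at 1.28-fold, and 0 in Δ*col-26* (17.1%) by limma, where 4 had an unadjusted p below 0.05 and the lowest adjusted p was 0.0026, for *cre-1*. The *ara-1* calls were lost with 2 of 4 libraries left out in the first step, Δ*rco-3* replicate 2 at 0.05% or replicate 1 at 0.5% (adjusted p up to 0.00254), and with any of 4 in the second (up to 0.0097). The *cre-1* call was lost with any of 4 (up to 0.0132) and after scaling (adjusted p = 0.00206), where *vib-1* passed instead, as lower in 0.05% (-0.22, adjusted p = 0.000849).

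The difference between the mutants and the WT in the step from 0.05 to 0.5% glucose was tested too. In Δ*rco-3* 6 of 7 factors passed (50.4% of all genes tested) and in Δ*col-26* 5 (51.1%). Those that passed in both mutants and kept their sign after scaling were *clr-1* (-1.01 and -0.97), *xlr-1* (-1.01 and -1.13), *cre-1* (-0.89 and -0.68), *ara-1* (-0.48 and -0.90) and *pdr-1* (0.42 and 0.37), and *pdr-1* did not pass after scaling (adjusted p = 0.087 and 0.127). The *vib-1* difference of 0.28 in Δ*rco-3* turned to -0.029 after scaling and did not pass with any of 8 libraries left out (adjusted p up to 0.00606). The *ara-1* difference in Δ*rco-3* was lost with 4 of 8 left out, replicate 1 of either strain at 0.05% glucose or replicate 2 of either at 0.5% (adjusted p up to 0.00232).

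Set against each other, the 2 mutants differed most without carbon source. There 6 of 7 factors passed between the mutants (67.7% of all genes tested) and 2 were DEGs (5.31%): *clr-1* was 2.81-fold higher and *cre-1* 2.57-fold lower in Δ*rco-3*. On glucose 6 passed at 0.05% (51.7%), 5 at 0.5% (47.6%) and 4 at 2% (49.4%), with no DEG (1.4, 1.27 and 2.33% of all genes). After scaling these counts became 3, 2 and 4. At 2% *clr-1* was then lost (adjusted p = 0.00646), and *ara-1* passed as lower in Δ*rco-3* (-0.45 on the log2 scale, adjusted p = 3e-05). At 0.5% *ara-1* also passed as lower after scaling (-0.32, adjusted p = 0.000986). The differences that passed in all 3 glucose media with and without scaling were those of *cre-1*, lower in Δ*rco-3* by 1.32-fold, 1.14-fold and 1.39-fold. The second of these was lost without replicate 1 of either mutant (adjusted p up to 0.00636). The *xlr-1* transcript was 1.66-fold, 1.52-fold and 1.73-fold higher in Δ*rco-3*, of which the value at 0.5% did not pass after scaling (adjusted p = 0.00535). The *clr-2* difference without carbon source, 1.38-fold lower in Δ*rco-3*, did not pass with any of the 4 libraries left out. It was larger after scaling (-0.68 on the log2 scale, adjusted p = 1.75e-06).

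Ordered by level over the 12 groups, *ara-1*, *clr-1* and *pdr-1* each had a starved group of WT or Δ*rco-3* at the top, and *xlr-1* had starved Δ*rco-3*, 28.8 ± 0.403 FPKM, just above the starved WT, 27.04 ± 0.219 (SD, n = 2), an order that was turned after scaling (log2 difference -0.14). The *clr-2* transcript separated into 3 starved groups between 4.04 and 5.585 FPKM and 9 glucose groups between 0.16 and 0.325, of which most neighbours overlapped. The 3 highest *vib-1* groups were the WT on glucose, 44.4 to 59.92 FPKM, and the lowest was the starved WT. For *cre-1* the WT held both ends, 105.4 ± 0.325 FPKM at 0.05% glucose and 14.09 ± 0.778 without carbon source.

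Across the 12 group means of log2(FPKM + 1), which share strains and media, *xlr-1* and *ara-1* had a Pearson r of 0.974, *clr-2* and *pdr-1* 0.935, and *clr-1* and *xlr-1* 0.873. The *clr-1* and *clr-2* transcripts followed each other less closely, at 0.515. The *vib-1* transcript ran against *ara-1* (-0.886) and *pdr-1* (-0.876). Among all genes above 20 FPKM in at least 1 group, those most like each factor over the 12 means were NCU08274 and NCU04255 for *pdr-1* (r = 0.996 and 0.995), NCU00695 and NCU09685 for *clr-2* (0.993 and 0.989), NCU05519 and NCU03693 for *ara-1* (0.992 and 0.991), and NCU01200 and NCU00005 for *xlr-1* (0.988 and 0.983). For *vib-1* they were NCU08927 and NCU08094 (0.984 and 0.977), for *cre-1* the nitrite reductase gene *nit-6* and NCU01648 (0.972 and 0.941), and for *clr-1* NCU02617 and NCU09973 (0.951 and 0.947). These were the highest of 4753 candidate genes (4754 for *clr-2*), and are given as a description.

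Genes that these factors are known to act on were followed as lists. Of 17 genes for cellulose use, all tested, 16 rose in the WT when glucose was removed, 17 did so in Δ*col-26* and 16 in Δ*rco-3*, with medians of 1.97, 2.06 and 1.79. Of all genes tested 49.9% rose in the WT, 42.5% in Δ*col-26* and 49.8% in Δ*rco-3*, with medians of 0.307, 0.133 and 0.297. The cellodextrin transporter gene *cdt-2* went from 0.395 ± 0.177 FPKM at 2% glucose to 243.7 ± 14 in the starved WT, and from 30.6 ± 2.14 to 149.8 ± 4.35 in Δ*col-26* (SD, n = 2). In Δ*rco-3* it went from 10.01 ± 0.226 to 111.6 ± 0.311. The other cellodextrin transporter gene, *cdt-1*, reached 269.2 ± 3.68 FPKM in starved Δ*col-26*, against 95.96 ± 3.43 in the starved WT and 76.01 ± 0.806 in starved Δ*rco-3*. At 2% glucose 7 of the 17 were higher than in the WT in each mutant, with none lower. These counts lie near the shares of all genes that were higher there, 33.5% for Δ*col-26* and 43.2% for Δ*rco-3*, and the medians of the list were 0.0927 and 0.38, against 0.0467 and 0.209 over all genes.

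Of 9 genes for xylan use 8 rose on starvation in the WT, 7 rose and 1 fell in Δ*col-26* and 9 rose in Δ*rco-3*, and at 2% glucose 6 were higher than in the WT in each mutant, beside the same shares of all genes. The xylanase gene *gh10-2* held 0.3 ± 0.0707 FPKM in the WT at 2% glucose, 56.68 ± 0.714 in Δ*col-26* and 16.12 ± 0.785 in Δ*rco-3* (SD, n = 2). All 8 genes of the pentose list were higher in both mutants than in the WT at 2% glucose, where 33.5% of all genes were for Δ*col-26* and 43.2% for Δ*rco-3*. The medians of the list were 1.62 for Δ*col-26* and 1.43 for Δ*rco-3*, against 0.0467 and 0.209 over all genes. On starvation in the WT all 8 rose, as did 49.9% of all genes. The xylose reductase gene *xr* went from 6.58 ± 0.665 FPKM at 2% glucose to 58.68 ± 3.34 in the starved WT, and at 2% held 24.06 ± 1.07 in Δ*col-26* and 19.91 ± 0.24 in Δ*rco-3*.

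In the pectin list 9 of 10 genes could be tested, and at 2% glucose 6 were higher and 3 lower than in the WT in each mutant. Of all genes 33.5% were higher and 26.5% lower for Δ*col-26*, and 43.2% higher and 17.3% lower for Δ*rco-3*. The polygalacturonase gene *gh28-2* held 0.13 FPKM in both WT libraries at 2% glucose, against 5.505 ± 0.0636 in Δ*col-26* and 6.625 ± 1.24 in Δ*rco-3* (SD, n = 2). Of the 3 strongly glucose-repressed genes, the invertase gene *inv*, the high-affinity glucose transporter gene *hgt-1* and NCU04963, all were higher in both mutants at 2% glucose. Of all genes 33.5% were higher there for Δ*col-26* and 43.2% for Δ*rco-3*. The medians of the 3 were 5.01 for Δ*col-26* and 5.12 for Δ*rco-3*, against 0.0467 and 0.209 over all genes. The *inv* level at 2% glucose was 10.11 ± 0.382 FPKM in the WT, 641.6 ± 2.11 in Δ*col-26* and 439.9 ± 9.44 in Δ*rco-3*.

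Other regulators moved in both directions. In the WT 13 of 34 transcription factors that the study had screened for *glt-1* expression rose on starvation and 14 fell, where 49.9% of all genes rose and 31% fell, with a median of -0.0181, and of 9 other carbon regulators 4 rose and 3 fell, with a median of -0.00582, against 0.307 over all genes. The 34 leave out *vib-1*, which is among the 7, and *col-26*. At 2% glucose their median was 0.0964 in Δ*col-26* and 0.176 in Δ*rco-3*, each *vs.* WT. The corepressor genes *rco-1* and *rcm-1* held 90.8 ± 0.912 and 50.94 ± 1.68 FPKM in the WT at 2% glucose and 86.17 ± 1.03 and 50.72 ± 0.735 without carbon source (SD, n = 2). In Δ*col-26* they held 109.8 ± 0.7 and 80.51 ± 2.16 FPKM at 2% glucose and 103.3 ± 3.99 and 94.97 ± 0.368 without carbon source. Those of Δ*rco-3* were 109.7 ± 2.74 and 56.35 ± 0.099, and 111.7 ± 3.69 and 62.3 ± 1.05. The *col-26* transcript itself was 2.64-fold higher in Δ*rco-3* than in the WT at 2% glucose and 1.34-fold higher without carbon source. Both ratios are unscaled, and scaling lowers both. The median-ratio factors at 2% glucose were 1.126 and 1.107 in Δ*rco-3*, against 0.9035 and 0.9095 in the WT. Without carbon source they were 1.347 and 1.353, against 1.144 and 1.149.

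**Figure D4:**
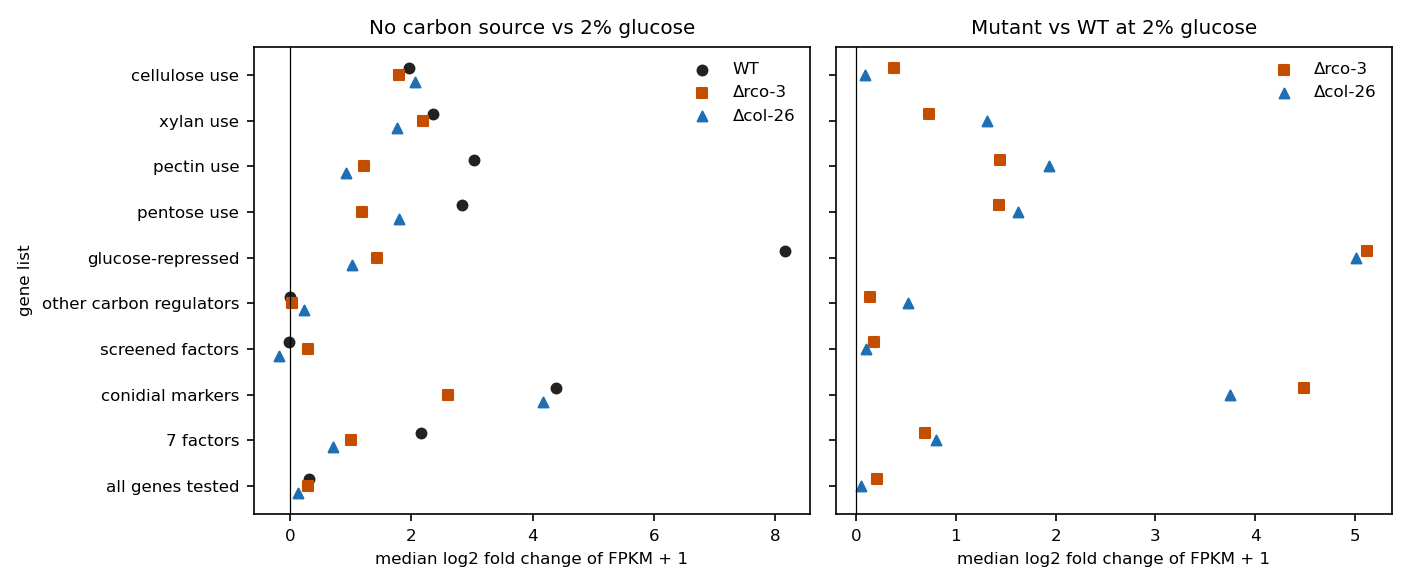
Median log2 fold change of FPKM + 1 for each gene list (rows), the 7 factors and all genes tested, for no carbon source *vs.* 2% glucose within each strain (left) and each mutant *vs.* WT at 2% glucose (right), without further scaling. The 7 factors lie on the left at 2.16 for the WT, 0.703 for Δ*col-26* and 1.00 for Δ*rco-3*, and the 34 screened factors lie near 0 in the WT.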

How the data were processed

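RNA-Seq covered 3 strains and 4 media, 24 libraries grouped by the sample labels into 12 groups of 2. The values deposited are FPKM. To make them, the authors trimmed reads with Trimmomatic 0.36, aligned them, and counted them with RSEM 1.2.8. As the aligner, the submitters' notes name HISAT2 2.1.0 and the paper's methods Bowtie2. The authors tested with DESeq 1.5.1 on counts, which was not rerun because FPKM are not counts. Each library's FPKM are relative to its total, and so shift together when abundant genes change.

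Tests used limma 3.58.1 in R 4.3.3 on log2(FPKM + 1), with 12 groups in 1 fit (12 residual and 6.313 prior degrees of freedom), 7981 genes with a mean of at least 1 FPKM in at least 1 group, and Benjamini-Hochberg adjustment over these. Thresholds were those of the study. The members and lists were chosen with earlier results of these data known. Besides the 7 factors and the deleted genes, the text names the 3 most abundant genes of each list where they matter and the 2 genes most like each factor. Pairing was checked as the correlation of same-numbered replicates' deviations, over 66 group pairs (r from -0.429 to 0.254, 10 above 0.1), and numbers were not taken as pairs. Depth came from 56 genes with clean steps (quartiles 9590000 to 14200000 fragments), using annotated gene spans, so fragment numbers are approximate and cover counting error only. Alternatives were pseudocounts of 0.1 and 5, median-ratio scaling, no filter, no variance trend, the replicate block, only the groups compared, and each library left out. The fit was tested on simulated data. Python 3.11.15, numpy 2.4.6 and matplotlib 3.10.9 served for depth and figures. Symbols and coordinates are from RefSeq (NC12), where *pdr-1* and *ara-1* carry no symbol. Sequences were not used here.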

Additional observations from a re-analysis of the deposited data

Results flagged for a closer look

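Effects that differed between a mutant and the WT by the test of the difference itself, with an adjusted p below 0.001 and an absolute difference of at least 1 on the log2 scale, concerned 5 of the 7 factors. Of the 7981 genes tested, 18.2% met this rule for the starvation response in Δ*rco-3*, 20.9% for that in Δ*col-26*, and 13.7 and 13.5% for the step from 0.05 to 0.5% glucose. For no carbon source *vs.* 2% glucose, the response in Δ*rco-3* minus that in the WT was -1.53 for *clr-1*, -2.96 for *xlr-1*, 1.79 for *vib-1* and -3.91 for *ara-1*. The response in Δ*col-26* minus that in the WT was -2.63 for *clr-1*, -3.09 for *xlr-1*, 1.27 for *cre-1*, 1.78 for *vib-1* and -4.96 for *ara-1*. For 0.05 *vs.* 0.5% glucose the difference was -1.01 for *clr-1* and -1.01 for *xlr-1* in Δ*rco-3*, and -1.13 for *xlr-1* in Δ*col-26*. Groups of 2 libraries are too small for a test of outlying libraries.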

How the results depend on the processing

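FPKM carry no counts, so values under about 1 FPKM, most of all *clr-2* on glucose, are limited by depth. Differences between strains depend on scaling, and not only the small ones. Between the mutants at 0.5% glucose the *xlr-1* difference of 0.56 became 0.32 with median-ratio scaling and no longer passed. For Δ*rco-3* *vs.* WT at 0.05% glucose *vib-1* went from -0.94 to -1.53 and *pdr-1* from 0.94 to 0.40. Of the 196 values of 7 factors in 28 comparisons, 195 kept direction and side of the threshold with the replicate block, which changed no other call than that of *vib-1* in the Δ*rco-3* *vs.* WT difference for 0.05 *vs.* 0.5% glucose (0.28, adjusted p = 0.00109). The numbers kept were 195 without a filter on low values, 193 without a variance trend, 191 with a pseudocount of 0.1, 191 with 5, 172 of the 178 that could be fitted on only the groups compared, and 166 with median-ratio scaling, where 19 were lost, 7 gained and 4 turned. With a library left out, 845 of 896 kept.

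With median-ratio scaling *clr-1* at 0.05% glucose in Δ*rco-3* *vs.* WT became -0.28 (from 0.30), *vib-1* and *pdr-1* between the starved mutants -0.19 (from 0.15) and -0.073 (from 0.29), and *vib-1* in the Δ*rco-3* *vs.* WT difference for 0.05 *vs.* 0.5% glucose -0.029 (from 0.28). The *ara-1* value of that last difference became 0.0097 with a pseudocount of 5 (from -0.48). Of the counts of factors that passed, those between the mutants went from 6 to 3 at 0.05% glucose and from 5 to 2 at 0.5% with median-ratio scaling. For 0.5 *vs.* 2% glucose in the WT the count went from 2 to 1 with a pseudocount of 5, on only the groups compared, and with each library left out (1 to 1). In Δ*rco-3* it went from 1 to 0 with a pseudocount of 0.1, without a filter, without a trend and with each library left out (0 to 0). For 0.05 *vs.* 0.5% glucose the count of 1 became 0 in Δ*rco-3* with a pseudocount of 0.1 and lay at 0 to 1 with a library left out, and became 0 in Δ*col-26* without a trend and with each library left out (0 to 0). The cause of these changes was not tested. Among the genes that passed, scaling moved the share that were higher, for example from 61.6 to 50.1% for starvation in the WT. It went from 82.7 to 47.6% at 0.05% glucose for Δ*rco-3* *vs.* WT and from 84.8 to 50.8% between the starved mutants.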
